A study of Mus musculus with 7 samples.

Results

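The occupancy of GATA2 and of the pathogenic variant 9aa-Ins was described at the genes of 9 transcription factors of stem and progenitor cell self-renewal: Hoxa7, Hoxa9, Hoxa10, Meis1, Mecom, Hhex, Ikzf1, Ikzf2 and Myc. The genes were chosen by name from the 21938 protein-coding genes of the nuclear chromosomes in GENCODE M21. A peak was linked to a gene when its summit lay inside the gene or within 100 kb of the gene start, and 16 of 6254 GATA2 peaks and 3 of 1079 9aa-Ins peaks were linked to the 9 genes.

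The peaks came from CUT&Tag, in which a transposase held at a protein by an antibody tags the surrounding DNA for sequencing. The cells were hi–77−/− progenitors from mouse fetal liver, which lack the –77 enhancer of Gata2 and were immortalized with an estrogen-regulated Hoxb8, kept active by β-estradiol in the medium. They were infected with a retrovirus encoding GFP and an HA-tagged protein, either GATA2 or the variant (9 amino acids inserted between the zinc fingers), cultured for 3 days and sorted for GFP. For each construct, 1 peak list pooled 2 anti-HA libraries, whose cells had been pooled before they were split, so no value has a replicate error and no test between the constructs was possible. Anti-HA antibody is directed at the tag, which only the introduced protein carries, and both groups carry the enhancer deletion and the Hoxb8 transgene. The lists hold no expression values, so neither the cell type nor the level of the constructs could be checked in them. The series also holds 3 libraries made with an antibody against GATA2, not analysed here. None of its 7 libraries used a control antibody or cells without a tagged protein, so unspecific signal could not be told from binding.

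GATA2 binds the sequence WGATAR (W is A or T, R is A or G) through its C-terminal zinc finger and maintains hematopoietic stem and progenitor cells. HOXA7, HOXA9 and HOXA10 are homeodomain proteins of a gene cluster that is active in stem cells and silenced as cells mature, and MEIS1 is a cofactor that binds DNA together with HOX and PBX proteins. Overexpressed HOXA9 and MEIS1 cause leukemia in mice, and Hoxb8 is used to hold progenitors in self-renewal, which places the targets and partners of HOX proteins among the genes of interest in these cells. MECOM (EVI1), HHEX, Ikaros (encoded by Ikzf1) and Helios (encoded by Ikzf2) are zinc finger or homeodomain regulators of stem cells and of early lymphoid and myeloid fates, and MYC drives growth and division. In a human leukemia rearrangement, the counterpart of the –77 enhancer is moved to MECOM.

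GATA2 peaks were linked to Meis1, Mecom, Hhex, Ikzf1, Ikzf2 and Myc and not to the 3 Hoxa genes. Thus 6 of 9 genes had a GATA2 peak, compared with 52.5% of all protein-coding genes. 9aa-Ins peaks were linked to 2 of 9 genes, Hhex and Myc, compared with 18.6% of all protein-coding genes. Both shares were near the background, and the counts are given as a description of these loci. Ikzf1 had 4 linked GATA2 peaks, Meis1, Hhex and Ikzf2 had 3 each, Myc had 2 and Mecom had 1, against a median of 1 over all protein-coding genes. In all, 19.3% of protein-coding genes had 3 or more. Per Mb of gene and flank searched, the 9 genes had 6.69 linked GATA2 peaks, against 6.34 for all protein-coding genes. By this count their density was near the background. It sums windows that overlap, so a peak or an empty stretch counts once for each gene that reaches it. The empty Hoxa region thus entered 3 times and lowered the value of the 9 genes. The whole genome had 2.29 GATA2 peaks per Mb.

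**Figure D1:**
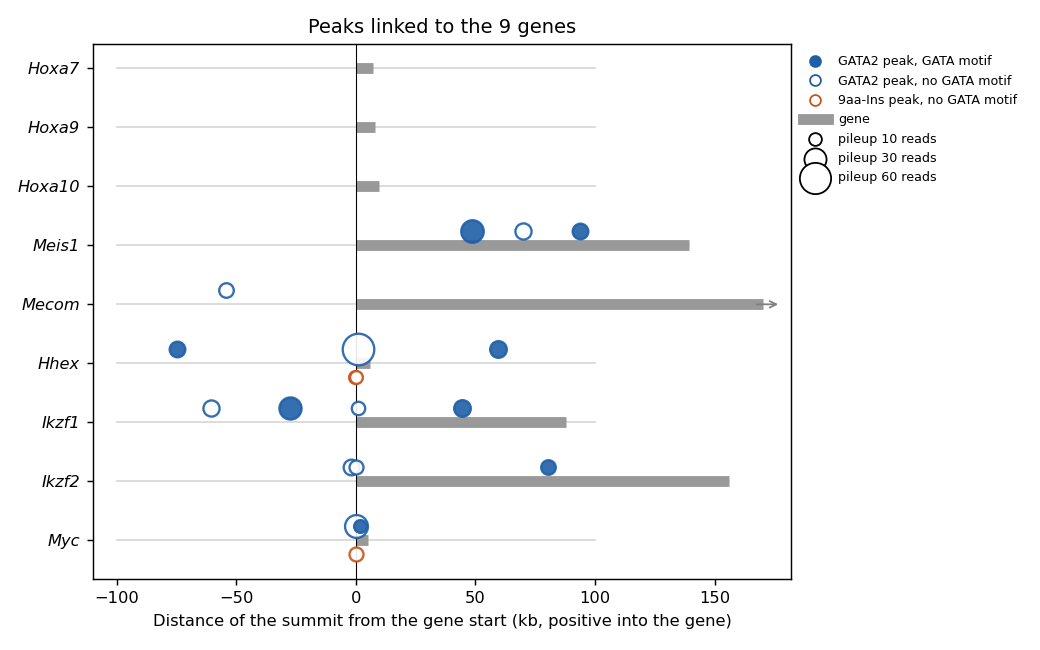
Position of the linked peaks, with the distance of each summit from the gene start in kb on the horizontal axis (positive values run into the gene, the gray bar is the gene and the thin line the reach of 100 kb). Blue circles are GATA2 peaks and orange circles 9aa-Ins peaks, circle area is proportional to pileup, and filled circles have WGATAR within 100 bp of the summit. The Hoxa rows are empty, and the 3 orange circles lie at the starts of Hhex and Myc.

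The sequences at the summits are shown because the GATA2 peaks differed in the 100 bp to each side of the summit. Sites with a GATA motif there were mostly far from the gene start, and sites without one there were mostly at promoters. WGATAR was sought on either strand, up to 100 bp to each side of the summit. It was present at 8 of 16 linked GATA2 peaks (50%, Wilson 95% CI 28.0 to 72.0), compared with 30.3% of all GATA2 peaks. Of the 9 linked peaks outside promoters, 7 had WGATAR (77.8%, 95% CI 45.3 to 93.7), compared with 47.0% of all GATA2 peaks outside promoters. A promoter reached from 2 kb before to 100 bp after the start of a protein-coding transcript, and 1 of 7 linked promoter peaks had WGATAR, compared with 13.9% of all promoter GATA2 peaks. These intervals cover counting error only and treat peaks as independent, and the background shares of 30.3% and 47.0% lie inside the intervals. The split depends on the window. Anywhere in the peak, WGATAR was present at 11 of 16 linked GATA2 peaks, given here without a share over all GATA2 peaks. The peaks at the starts of Hhex and Myc and the peak linked to Mecom were among those with WGATAR only outside the window. In the following windows of 201 bases centered on the summit, given on the plus strand of mm10, capitals mark WGATAR or its reverse complement, and left and right of a summit mean lower and higher coordinates.

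Meis1 intron, 48.7 kb from the start, chr11:18970141-18970341: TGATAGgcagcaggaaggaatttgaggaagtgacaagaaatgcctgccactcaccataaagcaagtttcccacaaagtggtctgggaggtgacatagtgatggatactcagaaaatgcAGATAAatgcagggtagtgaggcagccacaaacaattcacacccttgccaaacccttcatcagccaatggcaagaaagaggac
Meis1 intron, 93.8 kb from the start, chr11:18925049-18925249: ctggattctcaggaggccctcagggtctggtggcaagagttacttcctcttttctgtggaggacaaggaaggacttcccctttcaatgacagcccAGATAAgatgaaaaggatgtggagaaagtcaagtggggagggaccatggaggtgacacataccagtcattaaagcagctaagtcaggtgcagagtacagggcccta
Hhex, 74.7 kb upstream, chr19:37359989-37360189: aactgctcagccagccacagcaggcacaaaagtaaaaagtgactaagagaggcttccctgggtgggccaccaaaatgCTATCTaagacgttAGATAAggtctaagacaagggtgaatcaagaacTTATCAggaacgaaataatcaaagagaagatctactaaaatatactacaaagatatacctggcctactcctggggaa
Hhex, 59.4 kb downstream of the start, chr19:37494085-37494285: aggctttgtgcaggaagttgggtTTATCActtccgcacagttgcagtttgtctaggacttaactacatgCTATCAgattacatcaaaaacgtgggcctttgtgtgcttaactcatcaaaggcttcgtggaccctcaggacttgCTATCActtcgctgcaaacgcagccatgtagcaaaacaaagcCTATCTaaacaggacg
Ikzf1, 27.6 kb upstream, chr11:11657280-11657480: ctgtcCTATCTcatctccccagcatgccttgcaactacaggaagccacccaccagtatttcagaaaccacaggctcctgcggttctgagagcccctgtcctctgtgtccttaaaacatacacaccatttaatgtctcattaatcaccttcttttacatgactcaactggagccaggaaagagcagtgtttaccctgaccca
Ikzf1 intron, 44.4 kb from the start, chr11:11729350-11729550: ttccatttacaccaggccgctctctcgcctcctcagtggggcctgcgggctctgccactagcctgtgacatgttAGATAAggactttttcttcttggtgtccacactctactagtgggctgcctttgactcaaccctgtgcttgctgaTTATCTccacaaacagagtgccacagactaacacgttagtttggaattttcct
Ikzf2 intron, 80.2 kb from the start, chr1:69606979-69607179: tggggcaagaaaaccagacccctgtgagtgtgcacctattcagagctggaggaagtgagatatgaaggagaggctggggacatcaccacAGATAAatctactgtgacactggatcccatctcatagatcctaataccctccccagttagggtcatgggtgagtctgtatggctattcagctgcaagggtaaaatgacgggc

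Of the promoter sites without WGATAR within 100 bp of the summit, the window at the GATA2 summit of Hhex is shown because it is the strongest linked peak, although it lies outside both 9aa-Ins peaks there. The 120 bases before the start of Myc lie inside both the GATA2 and the 9aa-Ins peak. Neither holds WGATAR, so they have no capitals.

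Hhex, 0.934 kb from the start, chr19:37435644-37435844: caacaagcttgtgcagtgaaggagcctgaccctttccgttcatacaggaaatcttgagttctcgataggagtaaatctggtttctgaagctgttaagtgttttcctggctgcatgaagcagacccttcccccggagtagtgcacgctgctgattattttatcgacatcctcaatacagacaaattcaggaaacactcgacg
Myc promoter, chr15:61985271-61985390: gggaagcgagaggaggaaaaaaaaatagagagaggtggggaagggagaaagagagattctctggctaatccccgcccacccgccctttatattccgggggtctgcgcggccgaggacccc

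The Hoxa genes lie side by side on the minus strand of chromosome 6. Hoxa7 (ENSMUSG00000038236.8) spans 52214491 to 52221854, Hoxa9 (ENSMUSG00000038227.15) spans 52223100 to 52231089 and Hoxa10 (ENSMUSG00000000938.11) spans 52231197 to 52240854. None of them had a GATA2 or a 9aa-Ins peak in reach. Their windows overlap, so the 3 genes amount to 1 empty region rather than 3 independent observations. The nearest GATA2 peak on one side was at the promoter of Skap2, chr6:52012140-52012823, 209 kb from the start of Hoxa7, with a pileup (read depth at the summit) of 18 reads. It overlapped a 9aa-Ins peak with a pileup of 14 reads and had no WGATAR within 100 bp. On the other side the nearest summit was 400 kb from the start of Hoxa10. The gap between these 2 GATA2 summits was 628 kb, and 49.5% of 21433 protein-coding genes with a GATA2 peak on either side started in a gap at least as long. The Hoxa gap was thus close to the median gap of 614 kb. No peak in either list had a pileup under 9 reads, so weaker occupancy at the Hoxa genes was not detectable at this depth.

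Meis1 (ENSMUSG00000020160.18, chr11:18879817-19018985, minus strand) had 3 GATA2 peaks, all in its introns, and no 9aa-Ins peak. The strongest, chr11:18969929-18970402, lay 48.7 kb from the start and had a pileup of 31 reads (Poisson 95% CI 21.1 to 44.0) and a fold enrichment over background of 21.9, at percentile 94.0 of the GATA2 list. The peak at chr11:18948820-18949146, 69.9 kb from the start, had a pileup of 16 reads and no WGATAR. The peak at chr11:18924802-18925236, 93.8 kb from the start, had a pileup of 15 reads (95% CI 8.40 to 24.7). The first had the highest pileup, but its counting interval overlaps those of the other two. WGATAR lay 20 bp to the right of the summit of the strongest peak, with a second match 98 bp to the left, and 3 bp to the left of the summit of the peak 93.8 kb from the start. The nearest 9aa-Ins peak to the Meis1 start was 1182 kb away.

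Both weaker Meis1 peaks, but not the strongest, also carried letters bound by its own protein family. TGACAG, the core bound by MEIS proteins, was centered 12 bp to the left of the summit of the peak 93.8 kb from the start, just before the AGATAA match in the printed window. It was also found 27 bp to the right of the summit of the peak 69.9 kb from the start, together with TGATTNA, the PBX-HOX core, at 58 bp. Over all 16 linked peaks, TGACAG was present at 3 (18.8%, compared with 14.9% of all GATA2 peaks), and TGATTNA was present at 3 (18.8%, 95% CI 6.59 to 43.0, compared with 5.15% of all GATA2 peaks). The other TGATTNA matches were at the peaks 74.7 kb upstream of Hhex and 27.6 kb upstream of Ikzf1. All 3 peaks lay outside promoters, where TGATTNA was present at 3 of 9 linked GATA2 peaks and at 7.36% of all GATA2 peaks. Several motifs were searched, and no share was tested. Both motifs were searched on either strand in the same window, and a match does not show that a HOX or MEIS protein was bound.

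**Figure D2:**
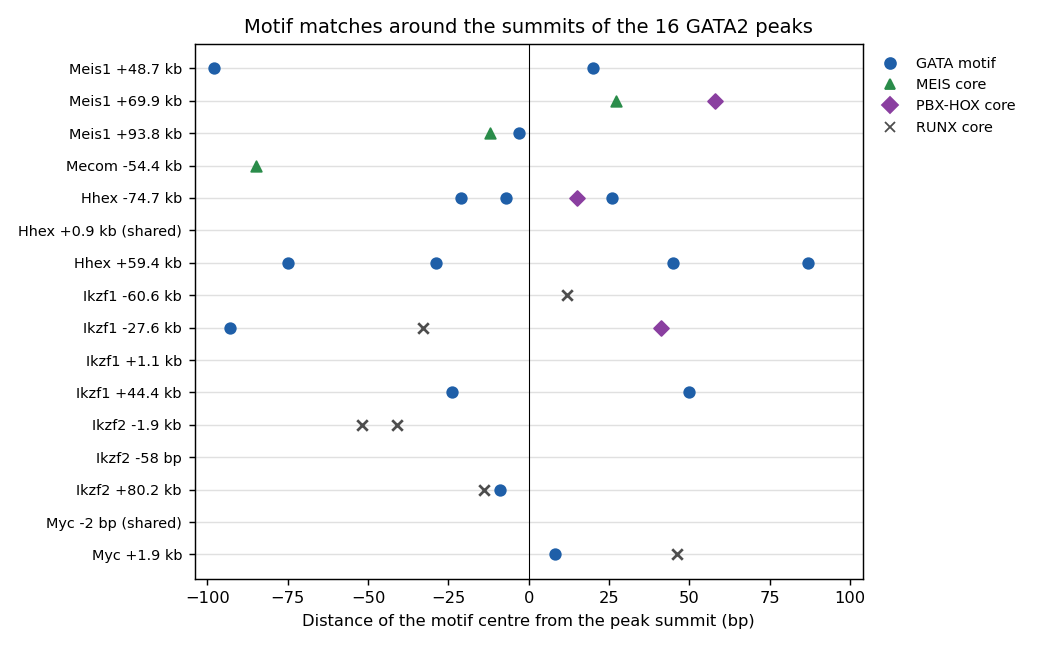
Position of motif matches relative to the summit of each of the 16 linked GATA2 peaks, in bp on the horizontal axis, with 1 row per peak named by gene and distance from the gene start. Circles are WGATAR, triangles the MEIS core, diamonds the PBX-HOX core and crosses the RUNX core. The 2 rows marked shared have no match, and neither have the GATA2-only rows of Ikzf1 at +1.1 kb and Ikzf2 at -58 bp. The peak 59.4 kb from the Hhex start has 4 WGATAR matches.

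Mecom (ENSMUSG00000027684.16, chr3:29951296-30548008, minus strand), the longest of the 9 genes at 597 kb, had 0 GATA2 and 0 9aa-Ins summits inside it. Its only linked GATA2 peak, chr3:30602264-30602585, lay 54.4 kb upstream at the promoter of Mynn, 334 bp from the Mynn start, and had a pileup of 13 reads (95% CI 6.92 to 22.2), a fold enrichment of 9.56 and no WGATAR within 100 bp. The Mecom link therefore rested on the promoter of a neighbor. WGATAR occurred elsewhere in this peak. From this summit the next GATA2 summit in the direction of Mecom was 2154 kb away, and 22.5% of protein-coding genes started in a gap at least as long. The nearest 9aa-Ins peak was 1962 kb from the Mecom start.

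Hhex (ENSMUSG00000024986.12, chr19:37434810-37440731, plus strand) had the strongest peak of the 9 genes. This GATA2 peak, chr19:37434442-37436182, was 1741 bp wide, against a median of 341 bp in the list, and had a pileup of 61 reads (95% CI 46.7 to 78.4) and a fold enrichment of 42.4. It ranked 34 of 6254. Its summit was 934 bp inside the gene, in a promoter by the rule above, and had no WGATAR within 100 bp, although WGATAR occurred elsewhere in the peak. With 9aa-Ins, 2 peaks overlapped this GATA2 peak, by 246 of 397 bp and 204 of 204 bp, at chr19:37434291-37434687 and chr19:37434915-37435118, with summits 360 bp before and 142 bp after the Hhex start. Each had a pileup of 10 reads (95% CI 4.80 to 18.4). The 9aa-Ins summits were 1294 and 792 bp from the GATA2 summit, so the peaks shared the region but not its highest point. Scaled by the background of each list, the GATA2 pileup was 5.99 times that of either 9aa-Ins peak (exact conditional 95% CI 3.04 to 13.1, counting error only), and 3 of 972 overlapping pairs in the whole lists, these 2 included, had a ratio this high. The overlap at Hhex was lost when 50% of each peak had to be covered, when summits had to lie within 150 bp, or at a q-value of 1e-10.

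The other peaks of Hhex were intergenic, GATA2-only and rich in GATA motifs. The upstream peak, chr19:37359938-37360368, lay 74.7 kb before the start (and 16.3 kb from the start of Kif11) and had a pileup of 15 reads, a fold enrichment of 10.9 and 3 WGATAR matches, 21 and 7 bp to the left and 26 bp to the right of the summit. The downstream peak, chr19:37494091-37494351, lay 59.4 kb beyond the start (and 56.2 kb from the start of Exoc6) and had a pileup of 17 reads, a fold enrichment of 12.3 and 4 matches. Chosen after the values were seen, 3 or more matches in the window were found at 3.94% of all GATA2 peaks outside promoters and 4 or more at 0.807%. Their pileups lay within the range of the linked peaks with 1 match, from 10 to 30 reads.

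Ikzf1 (ENSMUSG00000018654.17, chr11:11685003-11772926, plus strand) had 4 GATA2 peaks and no 9aa-Ins peak. The strongest, chr11:11656950-11657801, lay 27.6 kb upstream in an intron of the transcript Gm11999 and had a pileup of 30 reads (95% CI 20.2 to 42.8), a fold enrichment of 21.2 and a single WGATAR match 93 bp from the summit, at the edge of the window. The intronic peak at chr11:11729131-11729481, 44.4 kb from the start, had a pileup of 17 reads (95% CI 9.90 to 27.2) and matches 24 bp to the left and 50 bp to the right of the summit. The peak at the promoter, chr11:11685906-11686171, had a pileup of 11 reads and no WGATAR, and its window was the richest in G and C of all 16, at 77.1%. The peak at chr11:11624269-11624582, 60.6 kb upstream, lay in an intron of 4930512M02Rik, whose start was 3.39 kb away, and had a pileup of 16 reads and no WGATAR. Hence the strongest Ikzf1 peak was distal and lay above the promoter peak, whose interval ended at 19.7 reads.

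Ikzf2 (ENSMUSG00000025997.13, chr1:69531214-69687245, minus strand) had 3 GATA2 peaks, none above the median pileup of the list (15 reads), and no 9aa-Ins peak. At the promoter, chr1:69687251-69687536 had a pileup of 12 reads its summit lying 58 bp before the start, and chr1:69688973-69689220 had a pileup of 15 reads its summit lying 1.91 kb upstream. Neither had WGATAR in its window. The intronic peak at chr1:69606948-69607182, 80.2 kb from the start, had a pileup of 13 reads (95% CI 6.92 to 22.2) and WGATAR 9 bp to the left of the summit. There the reverse complement of TGTGGT, the core bound by RUNX proteins, overlapped the AGATAA match by 1 base. TGTGGT was present at 5 of 16 linked peaks (31.2%) and at 16.2% of all GATA2 peaks. The counting intervals of all 3 pileups overlapped. GGAAG, the ETS core, was present at 10 of 16 linked peaks (62.5%) and 61.7% of all GATA2 peaks, and the E-box CANNTG at 12 of 16 (75%) and 53.9%.

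Myc (ENSMUSG00000022346.15, chr15:61985391-61990374, plus strand) had its strongest peak at the start of the gene. The GATA2 peak chr15:61984866-61985778 was 913 bp wide, with the summit 2 bp before the start. Its pileup was 32 reads (95% CI 21.9 to 45.2) and its fold enrichment 22.5, at percentile 94.7. The 9aa-Ins peak chr15:61985190-61985692 lay wholly inside it, with the summit 33 bp after the start, 35 bp from the GATA2 summit, and a pileup of 12 reads (95% CI 6.20 to 21). The scaled GATA2 pileup was 2.62 times that of 9aa-Ins (exact conditional 95% CI 1.31 to 5.58, counting error only). Over all 972 overlapping pairs the median ratio was 1.49 (quartiles 1.14 and 1.89), and 72 pairs had a ratio as high as Myc or higher. Neither summit had WGATAR within 100 bp, although WGATAR occurred elsewhere in the GATA2 peak. A second GATA2 peak, chr15:61986986-61987356, 1.90 kb inside the gene, had a pileup of 10 reads, a fold enrichment of 7.51 and WGATAR 8 bp to the right of the summit, and was the lowest of the 16.

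**Figure D3:**
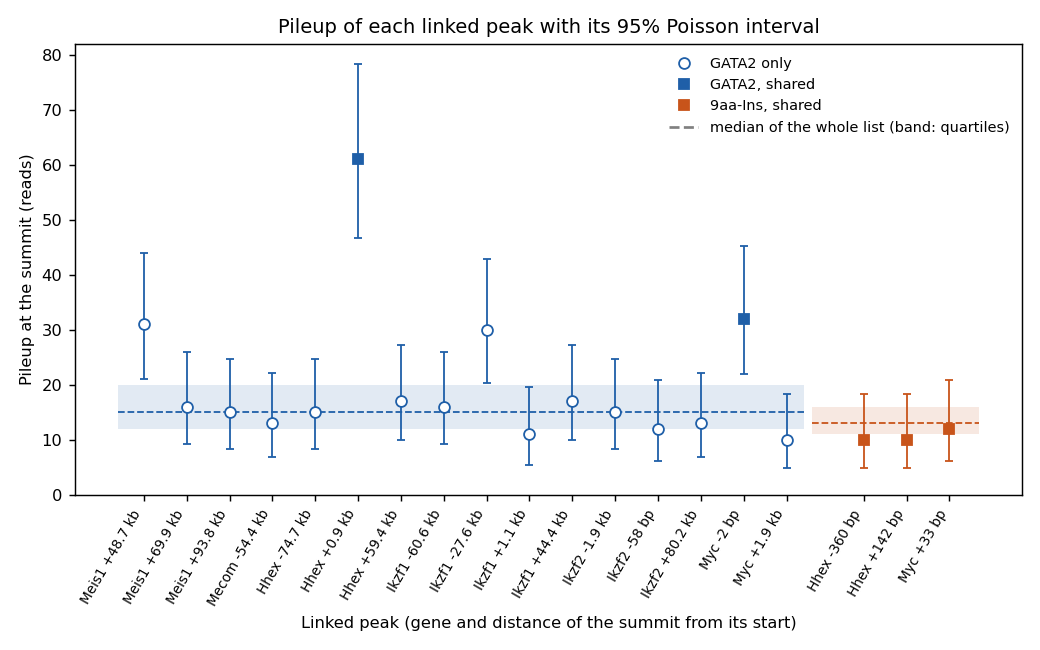
Pileup at the summit in reads for each of the 16 linked GATA2 peaks (blue) and 3 linked 9aa-Ins peaks (orange), with Poisson 95% intervals that cover counting error only. Filled squares are peaks shared between the lists, dashed lines are the medians of the whole lists (15 and 13 reads) and bands their quartiles. The strongest peaks of Hhex, Myc, Meis1 and Ikzf1 lie above the GATA2 band. The Ikzf1 promoter peak (11 reads) and the second Myc peak (10 reads) lie below it.

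Compared across the genes, most linked peaks were of ordinary height. The median pileup of the 16 GATA2 peaks was 15.5 reads (range 10 to 61) and their median fold enrichment 11.3, against 15 reads and 10.9 in the whole list. In order of the highest linked pileup, Hhex (61 reads) was followed by Myc (32), Meis1 (31), Ikzf1 (30), Ikzf2 (15) and Mecom (13). Hhex stood apart from Myc by intervals that do not overlap, whereas Myc, Meis1 and Ikzf1 had overlapping intervals, as had Ikzf2 and Mecom. The 3 9aa-Ins peaks had pileups of 10, 10 and 12 reads, against a median of 13 reads in their list.

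The linked peaks were next compared between the lists. Of 16 GATA2 peaks, 2 (12.5%) overlapped a 9aa-Ins peak by at least 1 bp, compared with 15.3% of all GATA2 peaks. Both were promoter peaks, and none of the 9 peaks outside promoters was shared (Wilson upper limit 29.9%, and a limit of 3 counts allows up to 33.3%), compared with 8.49% of all GATA2 peaks outside promoters. In the other direction, 3 of 3 linked 9aa-Ins peaks overlapped a GATA2 peak, compared with 88.0% of the 9aa-Ins list. None of these 3 had WGATAR, compared with 12.1% of all 9aa-Ins peaks. All 8 linked GATA2 peaks with WGATAR within 100 bp of the summit were GATA2-only, as were 93.2% of all such GATA2 peaks, so this count was near the background. Both shared GATA2 peaks held WGATAR elsewhere in the peak. The lists were of similar depth, with backgrounds of 0.464 (GATA2) and 0.455 reads (9aa-Ins).

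**Figure D4:**
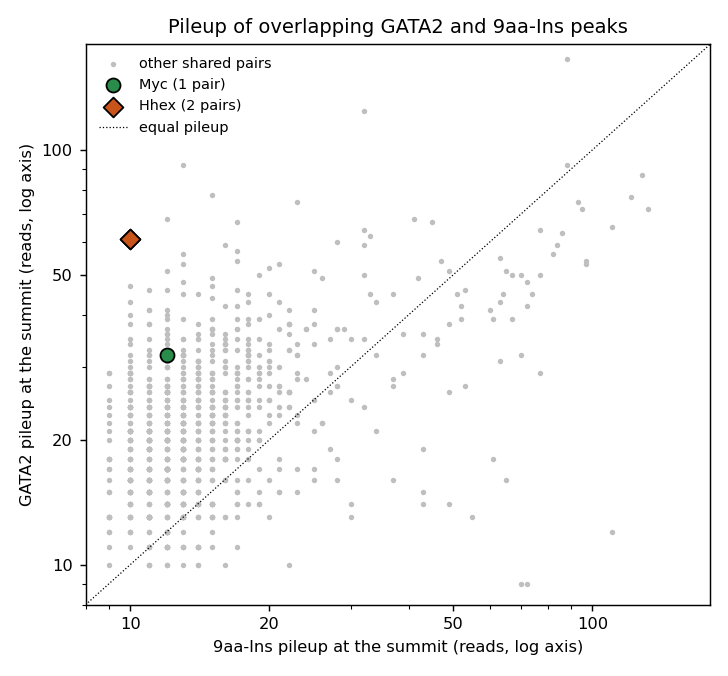
GATA2 pileup against 9aa-Ins pileup (reads at each peak's own summit, both axes logarithmic) for the 972 overlapping pairs of peaks. Gray points are other genes, the circle is Myc and the diamond stands for the 2 Hhex pairs, which coincide. Both genes lie above the dotted line of equal pileup, Hhex at 61 against 10 reads and Myc at 32 against 12 reads.

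Relatives, cofactors and targets of the 9 factors were counted by the same rule. Of 26 other HOX genes and TALE cofactors (the MEIS, PBX and PKNOX families), 5 had a GATA2 peak and 3 a 9aa-Ins peak, and all 18 Hoxa and Hoxb genes of the list were without either. As neighbors in 2 clusters, these 18 genes are not independent, and they include Hoxb8, the gene of the immortalizing transgene. The genes with the highest linked pileup were Pknox1 (39 reads, shared, 0.172 kb upstream of its start), Pbx2 (33 reads, shared, at the promoter of Agpat1) and Pbx4 (29 reads, shared, at the promoter of Gm20422). Of 14 relatives of Ikaros, MECOM and MYC, 11 had a GATA2 peak and 3 a 9aa-Ins peak, and the highest were Mnt (32 reads, shared), Mxd4 (26 reads, at the promoter of Haus3) and Ikzf4 (25 reads, at the promoter of Pa2g4). MNT and MXD4 are repressors that share the partner MAX with MYC, and Mycn, Mycl and Prdm16 had no linked peak.

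Of 16 other stem cell regulators, 13 had a GATA2 peak and 3 a 9aa-Ins peak, led by Dot1l (37 reads, 57.1 kb upstream and nearest to the start of Mob3a, with WGATAR), Zbtb16 (32 reads, in an intron 21.4 kb from its start, with WGATAR) and Nkx2-3 (31 reads, shared, at the promoter of Slc25a28). Of 18 genes known as targets of HOXA9 and MEIS1, 16 had a GATA2 peak and 3 a 9aa-Ins peak. The list was led by Myb (93 reads, 67.8 kb upstream and nearest to the start of Hbs1l), Erg (45 reads) and Lmo2 (36 reads). Each of these was a GATA2-only distal peak with WGATAR. Against 52.5% and 18.6% of all protein-coding genes, the 4 lists had GATA2 peaks at 19.2%, 78.6%, 81.2% and 88.9% and 9aa-Ins peaks at 11.5%, 21.4%, 18.8% and 16.7% of their genes. WGATAR was present at 3 of 12, 3 of 26, 6 of 31 and 16 of 48 of their GATA2 peaks (25%, 11.5%, 19.4% and 33.3%, compared with 30.3% of all GATA2 peaks). The lists share some genes and were compared without a test.

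**Figure D5:**
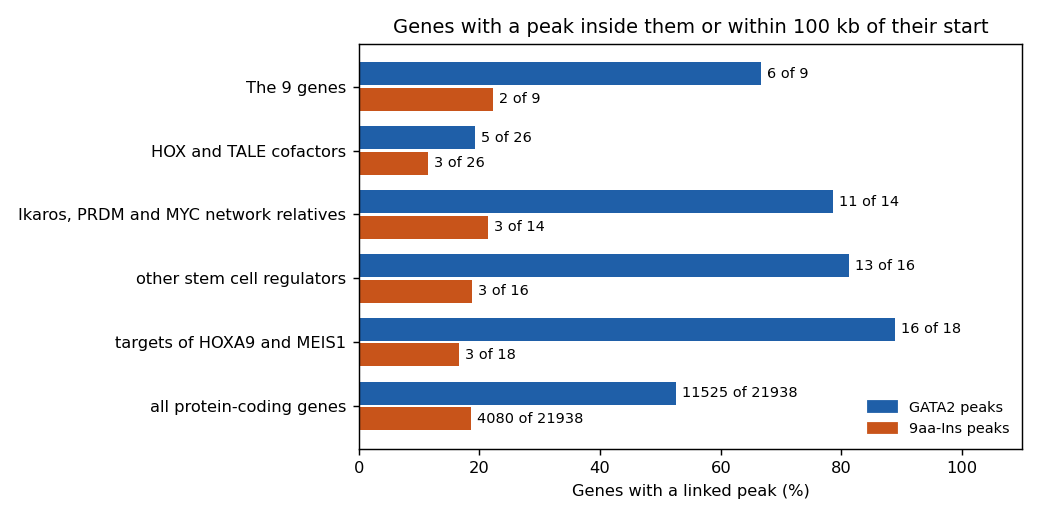
Share of genes in percent with a GATA2 peak (blue) or a 9aa-Ins peak (orange) inside them or within 100 kb of their start, for the 9 genes, the 4 lists and all protein-coding genes, with counts beside the bars. The list of HOX genes and cofactors lies lowest with GATA2 (5 of 26) and the list of HOXA9 and MEIS1 targets highest (16 of 18), and 9aa-Ins stays between 11.5% and 22.2% throughout.

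Genes with the most similar pattern were found by the Euclidean distance over 4 measures, namely the numbers of GATA2 peaks, of 9aa-Ins peaks and of GATA2 peaks with WGATAR, and the log2 of the summed GATA2 pileup plus 1. Ikzf1 (4 GATA2 peaks with a summed pileup of 74 reads, 2 of them with WGATAR) had the same values as Eps8l2, Fam186b and Prpf40b. Meis1 (3 peaks, 62 reads, 2 with WGATAR) was nearest to Cdyl, Ddc and Esam, each at a distance of 0.0451. Ddc is a neighbor of Ikzf1, and its linked peaks include those 136 and 152 kb from the Ikzf1 start, which lie inside Ddc. Hhex (3 GATA2 peaks with 93 reads, 2 with WGATAR, and 2 9aa-Ins peaks) was nearest to Znfx1, at 0.0153, with Gm45140 and Isy1 at 0.555. The 3 counts alone were the same as for Ikzf1 in 122 genes, for Meis1 in 235 and for Hhex in 11, each gene itself included.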

How the data were processed

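The values are peaks of 4 anti-HA CUT&Tag libraries, 2 for each tagged protein. The authors used Bowtie2 for alignment to mm10, discarded duplicates and blacklisted regions and called peaks with MACS3, and each deposited list (q-value of 1e-06) merged both replicates. The deposited fold enrichment, a ratio, is the summit pileup plus 1 over the background plus 1, and the lists also give the authors' −log10 p-values and a score that is 10 times the −log10 q-value. For CUT&Tag, software versions were not given in the sources used here. Every fold enrichment came out as a whole pileup (100%, tolerance 0.02 reads). The background is 1 value per list, as from 1 call on merged reads, although the methods describe merging the peaks of single replicates. Read totals per library are unknown, and the background stood in for depth. 0 columns belonged to other samples.

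The members and gene lists were chosen with earlier results of these data known. Genes were taken from GENCODE M21 (GRCm38, which mm10 names), and bases from the RefSeq copy of GRCm38.p6. Peaks overlapping by at least 1 bp were called shared. Intervals are Wilson (shares), exact Poisson (pileups) and exact conditional binomial (ratios), at 95%, and cover counting error only. All 9 genes are named with every linked peak. Of each wider list, the 3 genes of highest linked pileup are named, with others chosen after their values were seen. Similar genes were sought for the 3 members with most GATA2 peaks (ties by summed pileup), leaving out genes that share a linked peak with a member. Functions were tested on simulated data. Python 3.11.15, pandas 2.3.3, NumPy 2.4.6, SciPy 1.17.1 and pysam 0.24.0 were used. The alternatives tried were 12 settings of link distance, gene start, q-value, overlap, motif and list length.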

Additional observations from a re-analysis of the deposited data

How the results depend on the processing

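Of 52 values recomputed under 12 settings, 37 stayed within 1.5 times the reported count (for the median fold enrichment, within the step of 1 read), and 15 moved. Reaching to 250 kb gave 28 GATA2 peaks, 17 with WGATAR and 4 shared, 5 9aa-Ins peaks at 6 of the 9 genes, and a median fold enrichment of 12.3. Shortening the GATA2 list to the length of the 9aa-Ins list left 4 GATA2 peaks, at Hhex, Myc, Meis1 and Ikzf1, of which 2 had WGATAR and the other 2 were shared (2 of 4, against 2 of 16 with the full list), with a median fold enrichment of 22.2. With 10 kb, 5 peaks with WGATAR were linked. At a q-value of 1e-10, 1 9aa-Ins peak, that of Myc, was left at 1 gene, and 1 GATA2 peak was shared. With reciprocal overlap of 50%, 1 peak was shared, and with summits within 150 bp likewise 1. The number of genes with a GATA2 peak ranged from 4 to 9. No paired analysis was possible because both replicates are merged in each list. Sites under 9 reads at the summit could not be seen in either list.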

Other observations

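Blood enhancers of Myc are known far downstream of the gene, outside the reach of 100 kb. Between Myc and 2 Mb downstream of its start there were 8 GATA2 peaks and no 9aa-Ins peak, where the whole genome had 2.29 GATA2 and 0.396 9aa-Ins peaks per Mb. The first lay in Pvt1 at chr15:62158936-62159243, 0.174 Mb from the Myc start, where the pileup was 13 reads and WGATAR matched 2 times. Of the 8 peaks, only this peak was nearest to the start of Myc. A group of 6 peaks lay between 1.63 and 1.72 Mb, in introns of the transcript Gm41335, with pileups of 10 to 23 reads. The nearest protein-coding start to all 6 was that of Gsdmc. The strongest of them, chr15:63648163-63648593 and chr15:63657890-63658537, had 23 reads each and no WGATAR within 100 bp, and of all 8 peaks, none at a promoter, 3 had one, compared with 47.0% of all GATA2 peaks outside promoters.

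Further GATA2 peaks lay more than 100 kb from the starts of the Ikaros family genes and are given here after their values were seen. Between 100 and 250 kb from the start, and outside the gene, Ikzf1 had 6 GATA2 peaks with pileups of 15 to 32 reads, 5 of them with WGATAR. All 6 were nearer to the start of another protein-coding gene, the 3 downstream ones to Fignl1, and of these 2 lay inside Ddc. Ikzf2 had 3, at 173, 180 and 191 kb from its start and so beyond its 3′ end, with pileups of 32, 23 and 24 reads and 3, 2 and 2 WGATAR matches. The 3 peaks linked to Ikzf2 had 12 to 15 reads. Of the 12 GATA2 peaks in this range around the 9 genes, 9 had WGATAR (compared with 30.3% of all GATA2 peaks and 47.0% of those outside promoters) and 2 overlapped a 9aa-Ins peak (compared with 15.3%), those 209 kb from the Hoxa7 start and 223 kb upstream of Ikzf1.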
